A study of Mus musculus with 2 samples.

Results

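The lysosome and proton pump genes are the protein-coding genes of the mouse annotation whose names start with Atp6v, Atp6ap or Lamp and a digit, or consist of Cts and 1 further letter. The pattern matched 50 annotated names, of which 2 were pseudogenes, and left 48 genes: 22 subunits of the vacuolar proton pump, 3 accessory proteins, 1 gene (Atp6v1fnb) named after a neighbouring subunit gene, 4 LAMP genes and 18 cathepsins. They were measured among 18053 known genes with at least 1 read. Membership rests on names and not on any measured value, but the pattern was chosen with earlier results of these data known.

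Long-read RNA sequencing was carried out on total RNA of adrenal gland from male B6CASTF1/J mice aged 4 days, first-generation hybrids of the C57BL/6J and CAST/EiJ strains. There was 1 group with 2 libraries, biological replicates 2 and 1, and no treatment, genotype contrast or other condition. The labels do not settle whether the libraries come from 1 or 2 animals, because the tissue descriptions number the males differently while the library descriptions and the donor identifier are the same in both. Tests between the libraries therefore compare libraries, with a spread that may be technical.

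The vacuolar proton pump is a rotary machine that spends ATP to move protons into lysosomes, endosomes and secretory vesicles. Its V1 sector lies in the cytosol and splits ATP, and its V0 sector lies in the membrane and carries the protons. The acid lumen that results activates the cathepsins, proteases made as inactive precursors, while the LAMP proteins line the lysosomal membrane. In the adrenal gland, steroid-producing cortical cells use lysosomes to free cholesterol from lipoproteins, and chromaffin cells of the medulla use the pump to load catecholamines into granules.

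Replicate 2 held 810645 reads on the mouse genome and replicate 1 held 688260. Levels are given as CPM (the reads of a gene divided by these totals and scaled to counts per 1000000), so 1 read equals 1.23 CPM in replicate 2 and 1.45 CPM in replicate 1. For genes with 0 reads the upper limit is 3 reads, or 3.70 CPM in replicate 2 and 4.36 CPM in replicate 1. Markers of the labelled tissue were abundant: 8 of 8 adrenal cortex markers had reads and reached 31598 CPM in replicate 2 and 46618 CPM in replicate 1 as a sum, and 8 of 8 chromaffin markers reached 11048 CPM in replicate 2 and 14525 CPM in replicate 1. Markers of other tissues differed between the libraries. All 14 liver markers had reads and reached 16048 CPM in replicate 2 as a sum, against 295 CPM in replicate 1, and the 4 red blood cell markers reached 6124 CPM in replicate 2 and 2981 CPM in replicate 1. The 10 kidney markers went the other way, with 14.8 CPM in replicate 2 and 46.5 CPM in replicate 1, each on too few reads to be tested. In a bulk sample, fewer cells of a type and less RNA per cell cannot be told apart.

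3 sets of sequences carry the transcript forms described further on. The first set gives the alternative ends of Lamp2, a lysosomal membrane protein on chromosome X (mm10, minus strand), whose tails decide which form of the protein is made. Each line gives 12 bases of the shared exon in lower case and then, in capitals, the coding bases of the alternative last exon through the stop codon, from the GENCODE transcripts.
Lamp2-201: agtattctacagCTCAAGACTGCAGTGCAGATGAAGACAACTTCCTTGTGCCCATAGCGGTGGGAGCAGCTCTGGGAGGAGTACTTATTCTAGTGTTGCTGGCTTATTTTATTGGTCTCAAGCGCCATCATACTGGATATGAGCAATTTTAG
Lamp2-202: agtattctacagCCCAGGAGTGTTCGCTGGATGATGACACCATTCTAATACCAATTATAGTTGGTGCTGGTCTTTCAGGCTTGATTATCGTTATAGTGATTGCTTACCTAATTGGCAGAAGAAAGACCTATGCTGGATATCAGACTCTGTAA
Lamp2-203: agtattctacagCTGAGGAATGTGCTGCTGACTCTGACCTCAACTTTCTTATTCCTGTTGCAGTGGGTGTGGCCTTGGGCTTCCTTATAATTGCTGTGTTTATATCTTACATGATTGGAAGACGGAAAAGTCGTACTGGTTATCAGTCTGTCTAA
The capitals lie at chrX:38405432-38405571 for Lamp2-201, chrX:38421712-38421851 for Lamp2-202 and chrX:38402139-38402281 for Lamp2-203, in the last exon of each. Lamp2-201 encodes LAMP-2A, the receptor of chaperone-mediated autophagy, Lamp2-202 encodes LAMP-2B and Lamp2-203 encodes LAMP-2C.

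The second set gives 2 exon edges that reads used in an alternative way, with the bases left out by the alternative form in capitals. The Atp6v0e stretch is the end of the exon at chr17:26695455-26695484 (mm10, plus strand), in the 3′ UTR, and the Atp6v0a1 stretch is the start of an exon at chr11:101026660-101026695 (mm10, plus strand), within the coding sequence.
Atp6v0e exon end: agacgcgctgcacaGTGCCTAGGCACTGAG
Atp6v0a1 exon start: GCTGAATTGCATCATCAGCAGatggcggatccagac

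The third set shows where promoters of these genes hold the letters CACGTG, in capitals, the core of the element through which the TFEB family of transcription factors is known to act on lysosomal genes. The stretches come from RefSeq promoters (GRCm38.p6, the build that mm10 names), and each is written on the strand of its gene.
Ctsa promoter: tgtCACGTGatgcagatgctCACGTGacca
Atp6v0b promoter: ggtCACGTGgggtcggcgcatCACGTGcgc
Ctsd promoter: cccCACGTGacctgtatccagtcattctcc
Lamp1 promoter: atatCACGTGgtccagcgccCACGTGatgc
Atp6v0d1 promoter: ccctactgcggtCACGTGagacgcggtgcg
Atp6v1a promoter: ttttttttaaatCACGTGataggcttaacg
Atp6v0e promoter: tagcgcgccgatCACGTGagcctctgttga
They lie at chr2:164833758-164833787 for Ctsa, chr4:117887339-117887368 for Atp6v0b, chr7:142388046-142388075 for Ctsd, chr8:13159096-13159125 for Lamp1, chr8:105566050-105566079 for Atp6v0d1, chr16:44139373-44139402 for Atp6v1a and chr17:26676387-26676416 for Atp6v0e.

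The 48 genes took 6168 reads, or 7609 CPM, in replicate 2 and 6277 reads, or 9120 CPM, in replicate 1, a mean of 8364 ± 1069 CPM (SD, n = 2). These are 0.761% of the mouse reads in replicate 2 and 0.912% in replicate 1. Of the 48 genes, 34 had reads, 32 of them in both libraries, and 17 stood among the 1000 most abundant known genes. 30 genes had at least 20 reads over both libraries, 4 had 1 to 19 and 14 had none. A pair of cathepsins led the set: Ctsb and Ctsd together held 34.1% of its reads in replicate 2 and 37.1% in replicate 1.

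**Figure D1:**
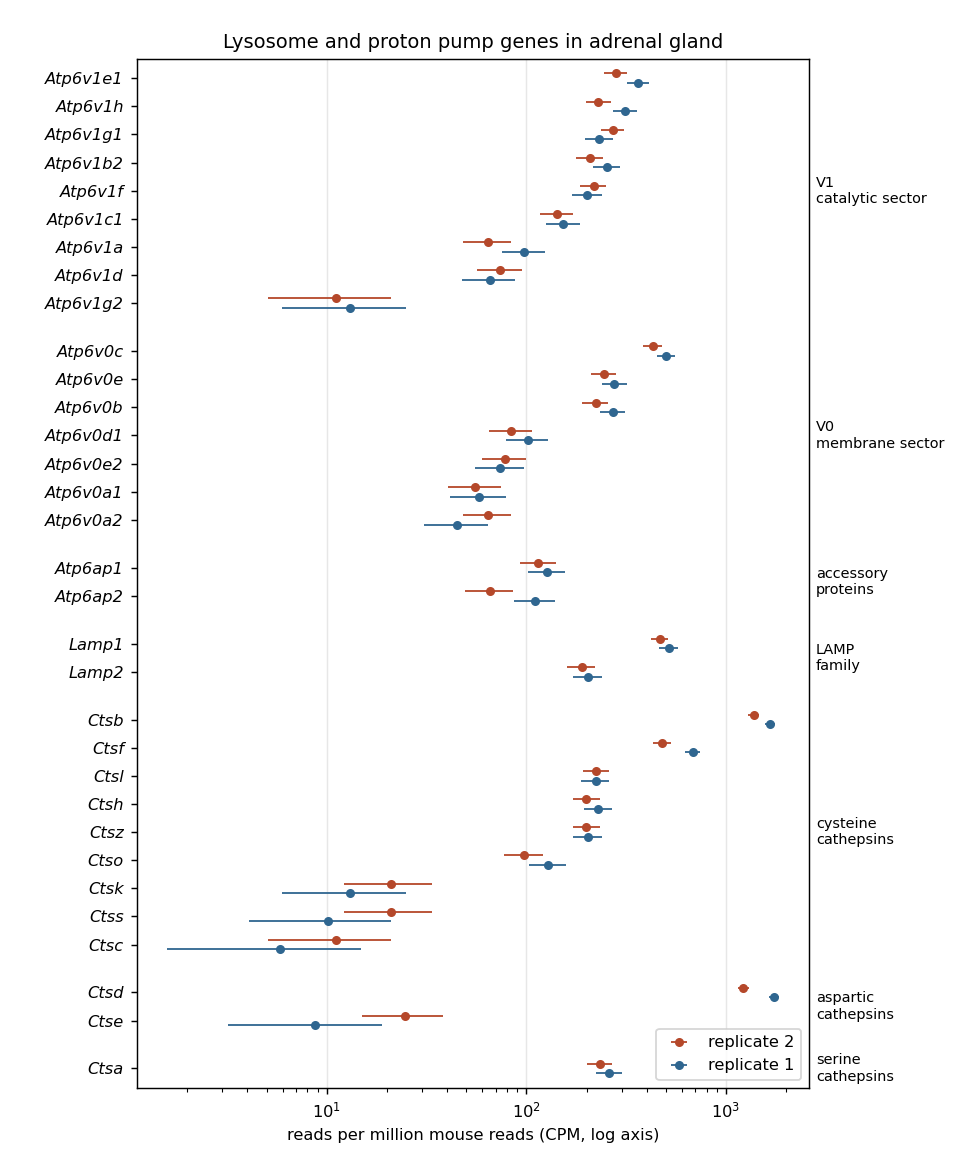
Level of the 32 genes with reads in both libraries, in CPM on a log axis, grouped by role; points are replicate 2 above replicate 1 and bars are 95% Poisson intervals of the read count. Ctsb and Ctsd stand highest, above 1000 CPM in both replicates, and Ctsc lies lowest with 11.1 CPM in replicate 2 and 5.81 CPM in replicate 1.

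Of the V1 sector, 10 of 13 genes had reads, with summed levels of 1495 CPM in replicate 2 and 1691 CPM in replicate 1. Atp6v1e1, the widely expressed E subunit of the peripheral stalk, led with 227 reads (280 CPM) in replicate 2 and 250 reads (363 CPM) in replicate 1. Atp6v1h, the H subunit that regulates the coupling of the sectors, stood at 229 CPM in replicate 2 and at 312 CPM in replicate 1, from 401 reads in all. Both were lower in replicate 2, and their counting intervals are shown in the plot of levels by role.

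Atp6v1g1, the G subunit of the stalk, had 219 reads (270 CPM) in replicate 2 and 159 reads (231 CPM) in replicate 1. Atp6v1f, the F subunit of the central stalk, had 176 reads (217 CPM) in replicate 2 and 139 reads (202 CPM) in replicate 1. These were the V1 genes with the higher level in replicate 2, together with Atp6v1d, the D subunit of the rotor axle, at 60 reads (74.0 CPM) in replicate 2 and 45 reads (65.4 CPM) in replicate 1.

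The head of the pump that splits ATP is built of the A and B subunits. Atp6v1b2, the B2 subunit, had 168 reads (207 CPM) in replicate 2 and 174 reads (253 CPM) in replicate 1. Atp6v1a, the catalytic A subunit, had 52 reads (64.1 CPM) in replicate 2 and 67 reads (97.3 CPM) in replicate 1. Atp6v1c1, the C subunit that clasps the sectors together, had 115 reads (142 CPM) in replicate 2 and 105 reads (153 CPM) in replicate 1. Atp6v1a averaged 80.7 ± 23.5 CPM and Atp6v1b2 averaged 230 ± 32.2 CPM (SD, n = 2). Per kilobase of the leading annotated transcript the levels were 19.1 CPM for Atp6v1a and 81.4 CPM for Atp6v1b2.

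Of the V0 sector, 8 of 9 genes had reads, with summed levels of 1177 CPM in replicate 2 and 1327 CPM in replicate 1. Atp6v0c, the proteolipid that forms the proton-carrying ring, led with 348 reads (429 CPM) in replicate 2 and 344 reads (500 CPM) in replicate 1. Atp6v0b, the larger proteolipid of the same ring, had 180 reads (222 CPM) in replicate 2 and 186 reads (270 CPM) in replicate 1. Atp6v0e, the small e subunit, had 198 reads (244 CPM) in replicate 2 and 190 reads (276 CPM) in replicate 1. All 3 were lower in replicate 2, by less than the threshold of the test.

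The processed pseudogene Atp6v0c-ps2 matches Atp6v0c over 465 aligned bases at 99.8% identity and was given 12 reads in replicate 2 and 11 in replicate 1, and whether reads were exchanged between them was not tested. The spliced Atp6v0c-201, with 3 exons, held 327 reads in replicate 2 and 327 in replicate 1. Atp6v0d1, the d subunit of the rotor, had 68 reads (83.9 CPM) in replicate 2 and 70 reads (102 CPM) in replicate 1. Atp6v0e2 had 63 reads (77.7 CPM) in replicate 2 and 51 reads (74.1 CPM) in replicate 1. Of the genes in the set that code for the proton channel subunit a, Atp6v0a1 had 45 reads (55.5 CPM) in replicate 2 and 40 reads (58.1 CPM) in replicate 1. Atp6v0a2 had 52 reads (64.1 CPM) in replicate 2 and 31 reads (45.0 CPM) in replicate 1.

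Several subunits are coded by more than 1 gene, and for most of them 1 gene took nearly all reads. Atp6v0d1, Atp6v1b2 and Atp6v1e1 held every read of their subunits in both libraries, whereas Atp6v0d2, Atp6v1b1 and Atp6v1e2, known from osteoclasts, kidney intercalated cells and testis, had none. For subunit B, 0 reads allow Atp6v1b1 a share of up to 1.79% in replicate 2 and 1.72% in replicate 1. Atp6v1c1 held all 115 reads of subunit C in replicate 2 and 105 of 106 in replicate 1, the remaining read being of Atp6v1c2. Atp6v1g1 held 96.1% of the reads of subunit G in replicate 2 (Wilson 95% interval 92.7 to 97.9) and 94.6% in replicate 1 (90.1 to 97.2). The rest of subunit G was Atp6v1g2, known from neurons, with 9 reads in replicate 2 and 9 in replicate 1, and Atp6v1g3 had none.

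Subunits a and e were divided between genes. Of the reads of Atp6v0a1, Atp6v0a2 and Atp6v0a4, Atp6v0a1 held 46.4% in replicate 2 (36.8 to 56.3) and 55.6% in replicate 1 (44.1 to 66.5). Neither Atp6v0a1 nor Atp6v0a2 thus exceeded the other beyond counting error. Atp6v0a4, the form of kidney and inner ear, had 0 reads in replicate 2 and 1 in replicate 1. Tcirg1, the a3 subunit known from osteoclasts, lies outside the name pattern, and the shares of subunit a leave it out. Tcirg1 had 65 reads (80.2 CPM) in replicate 2 and 57 reads (82.8 CPM) in replicate 1. In both libraries it had more reads than Atp6v0a1 or Atp6v0a2, and whether by more than counting error was not tested. Of the reads of subunit e, Atp6v0e2 held 24.1% in replicate 2 (19.3 to 29.7) and 21.2% in replicate 1 (16.5 to 26.8), and Atp6v0e held the rest.

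**Figure D2:**
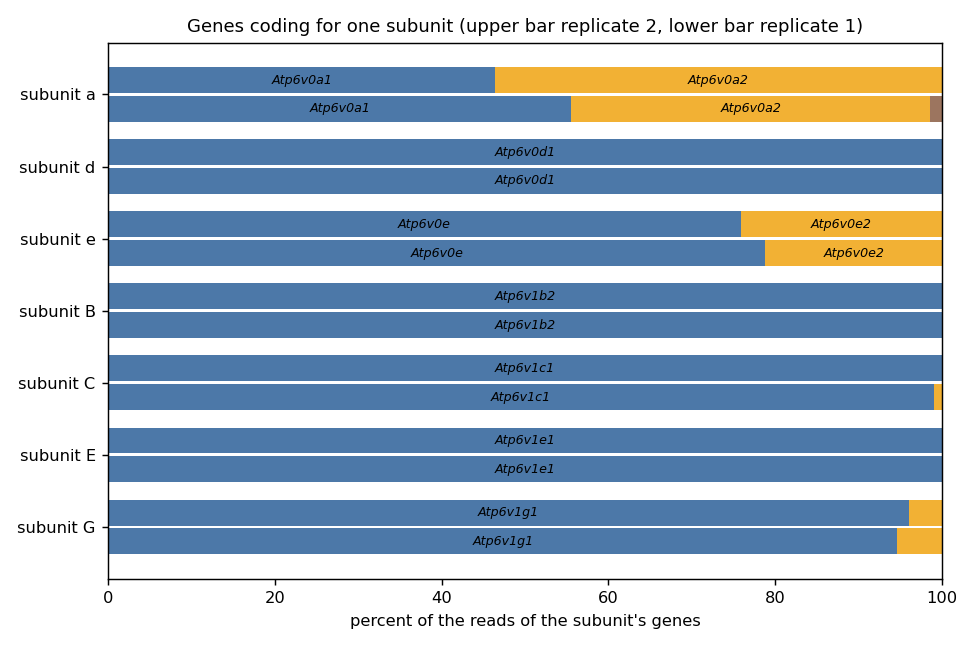
Share of reads, in percent, taken by each gene of the pump subunits that have more than 1 gene in the set, with replicate 2 as the upper bar and replicate 1 as the lower one. Subunits d, B and E show 1 gene alone in both replicates, subunits a and e are split, and the narrow unlabelled segments are Atp6v0a4, Atp6v1c2 and Atp6v1g2. Subunit e has Atp6v0e at 75.9% in replicate 2 and 78.8% in replicate 1. The bars of subunit a leave out Tcirg1, which lies outside the set.

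Of the accessory proteins, Atp6ap1, an assembly factor that stays with the complex, had 93 reads (115 CPM) in replicate 2 and 87 reads (126 CPM) in replicate 1. Atp6ap2, the prorenin receptor, had 53 reads (65.4 CPM) in replicate 2 and 76 reads (110 CPM) in replicate 1. Atp6ap1l and Atp6v1fnb had no reads.

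Of the LAMP family, Lamp1, the most abundant glycoprotein of the lysosomal membrane in most cells, had 377 reads (465 CPM) in replicate 2 and 355 reads (516 CPM) in replicate 1. Lamp2 had 153 reads (189 CPM) in replicate 2 and 140 reads (203 CPM) in replicate 1. Lamp3, a marker of mature dendritic cells, and Lamp5, a neuronal member, had no reads. The levels of both measured genes differed between the libraries by less than the test could call.

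The cathepsins held 53.9% of the set's reads in replicate 2 and 56.4% in replicate 1, in 12 of 18 genes. Ctsb, a cysteine protease with endo- and exopeptidase activity, had 1113 reads (1373 CPM) in replicate 2 and 1138 reads (1653 CPM) in replicate 1. Ctsd, the main lysosomal aspartic protease, had 990 reads (1221 CPM) in replicate 2 and 1193 reads (1733 CPM) in replicate 1. They ranked 36 and 41 among all known genes by mean level, and exchanged places between the libraries.

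Ctsf, a cysteine cathepsin with a long propeptide, followed with 387 reads (477 CPM) in replicate 2 and 468 reads (680 CPM) in replicate 1. Ctsa, the serine carboxypeptidase that protects neuraminidase and beta-galactosidase, had 189 reads (233 CPM) in replicate 2 and 178 reads (259 CPM) in replicate 1. Ctsl, a broad endopeptidase, had 181 reads (223 CPM) in replicate 2 and 153 reads (222 CPM) in replicate 1. Ctsh, an aminopeptidase, had 162 reads (199.8 CPM) in replicate 2 and 158 reads (229.6 CPM) in replicate 1. Ctsz, a carboxypeptidase, had 162 reads (199.8 CPM) in replicate 2 and 140 reads (203 CPM) in replicate 1. Ctsl, Ctsh and Ctsz thus lay within a narrow band, between 199.8 and 229.6 CPM in either library.

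Ctso had 79 reads (97.5 CPM) in replicate 2 and 88 reads (128 CPM) in replicate 1. Cathepsins best known from bone and immune cells were low. Ctsk, the collagenase of osteoclasts, had 17 reads (20.97 CPM) in replicate 2 and 9 reads (13.1 CPM) in replicate 1. Ctss, the cathepsin of antigen-presenting cells, had 17 reads (20.97 CPM) in replicate 2 and 7 reads (10.2 CPM) in replicate 1. Ctse, an aspartic protease of gut and immune cells, had 20 reads (24.7 CPM) in replicate 2 and 6 reads (8.72 CPM) in replicate 1. Ctsc, which activates the proteases of granulocytes, had 9 reads in replicate 2 and 4 in replicate 1. All 4 had more reads in replicate 2, with exact 95% intervals of the ratio of levels that included 1 for Ctsk (0.676 to 4.08), Ctss (0.813 to 5.88) and Ctsc (0.533 to 8.49) and not for Ctse (1.10 to 8.61), before any adjustment for the number of genes tested.

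Beside these low cathepsins, all 10 macrophage markers had reads and reached a sum of 385 CPM in replicate 2 and 394 CPM in replicate 1. The 8 granulocyte and mast cell markers reached 245 CPM in replicate 2 and 50.9 CPM in replicate 1. Of the 3 tested, 2 were called higher, where 3.23% of all genes tested were called in either direction. The 6 bone markers were near the floor, with 3.70 CPM in replicate 2 and 2.91 CPM in replicate 1. The part of these cells in the levels of Ctse, Ctss, Ctsk and Ctsc was not tested. Ctsg and Ctsw, the cathepsins of granulocytes and of cytotoxic lymphocytes, and the placental cathepsins Ctsj, Ctsm, Ctsq and Ctsr had no reads.

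Division by transcript length kept most of the highest genes in the first 10 but changed their order. Lamp1 ranked 4 in the set by CPM and 10 per kilobase, and Atp6v1f ranked 15 and 5. Whether transcript length affected the read counts was not tested. CPM was not divided by length, because each long read was counted once. No molecular identifiers are named, so reads cannot be equated with molecules. Per kilobase of the leading annotated transcript, 9 of the 10 highest genes remained in the first 10. Per kilobase, Ctsd led with 695, ahead of Atp6v0c with 393 and Ctsb with 319 CPM per kilobase. Atp6v1f, with an annotated transcript of 703 bases, entered and Atp6v1h left the first 10.

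Each gene with at least 20 reads was compared between the libraries by a two-sided Fisher's exact test over all 8276 such genes, with Benjamini-Hochberg adjustment, with calls made where the adjusted p was below 0.05 and the log2 ratio was 1 or more in either direction. None of the 30 genes was called, against 3.23% of all genes tested. At an unadjusted p under 0.05 there were 9 of the 30, where 19.2% of all genes tested passed. The median log2 ratio of replicate 2 over replicate 1 was -0.15 for the 30 genes and -0.10 over all genes tested. Of the 30 genes, 21 lay below 0 and 19 lay below the median of all genes tested. Individual log2 ratios ran from -0.75 for Atp6ap2 to 1.45 for Ctse.

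On the adjusted p alone, 5 of the 30 genes passed, all lower in replicate 2, where 4.1% of all genes tested passed in that direction, and none passed as higher, against 3.83% of all genes. Ctsd had a log2 ratio of -0.51 ± 0.06 (counting SE; adjusted p = 3.50e-14 by Fisher's exact test) and Ctsf one of -0.51 ± 0.10 (adjusted p = 1.09e-05 by the same exact test). Ctsb had a log2 ratio of -0.27 ± 0.06 (adjusted p = 3.36e-04, exact test). The smaller counts of Atp6v1h (log2 ratio -0.44 ± 0.14, adjusted p = 0.0319, exact test) and Atp6ap2 (log2 ratio -0.75 ± 0.26, adjusted p = 0.0453, exact test) passed narrowly. Under TMM scaling, under DESeq2's size factors, with no minimum of reads, without genomic models and from known models alone, Ctsb, Ctsd and Ctsf passed and Atp6v1h and Atp6ap2 did not. With a minimum of 10 reads Atp6ap2 did not pass (adjusted p = 0.0514, exact test). This look at the adjusted p alone was chosen after the values were seen. Genes with more reads pass at smaller ratios, and 17 genes of the set stood among the 1000 most abundant. The set was not matched to all genes by reads, so the shares on either p are not compared at equal depth.

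Markers of several tissues also differed between the libraries. The adrenal cortex markers were lower in replicate 2 (median log2 ratio -0.58, with 1 of 8 called lower and 6 lower on the adjusted p alone), as were the chromaffin markers (median log2 ratio -0.39, 5 of 8 lower on the adjusted p alone), while all 14 liver markers were called higher. Skeletal muscle markers reached 1977 CPM in replicate 2 and 1206 CPM in replicate 1 (2 of 4 tested higher on the adjusted p alone), and fat markers reached 2333 CPM in replicate 2 and 1790 CPM in replicate 1 (3 of 5 higher). Capsule and stroma markers reached 5494 CPM in replicate 2 and 4799 CPM in replicate 1 (3 of 6 tested higher and 1 lower). Over all genes tested, 3.23% were called, and on the adjusted p alone 4.1% passed as lower and 3.83% as higher. The part of these tissues in the lower levels of Ctsb, Ctsd and Ctsf was not tested. Since there are 2 libraries, leaving out the one with the higher liver markers leaves the values of replicate 1 alone and no comparison.

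**Figure D3:**
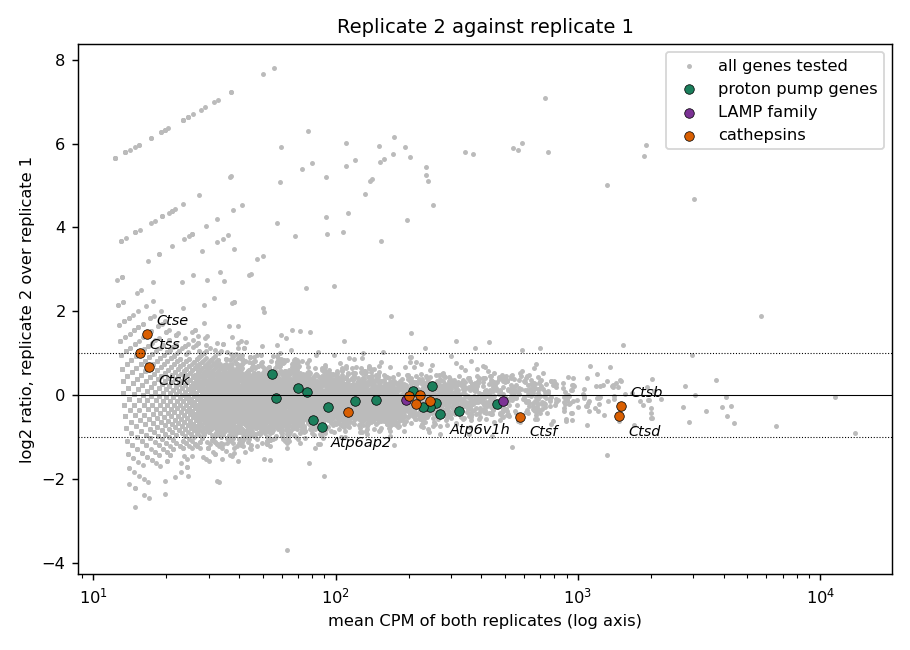
Log2 ratio of replicate 2 over replicate 1 against mean CPM (log axis) for the 8276 genes tested in grey, with proton pump genes, LAMP genes and cathepsins in colour; dotted lines mark log2 ratios of 1 and -1. The 30 coloured genes lie between -0.75 and 1.45, and the named genes are the 5 that passed on the adjusted p alone together with Ctse, Ctss and Ctsk.

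Transcript models were sorted by the depositors' program into complete matches of annotated transcripts (Known), incomplete matches that follow part of an annotated chain of introns (ISM), new combinations of annotated splice sites (NIC), models with a new splice site (NNC) and models without clear splicing (Genomic). Known models held 84.3% of the set's reads in replicate 2 (Wilson 95% interval 83.4 to 85.2) and 87.1% in replicate 1 (86.2 to 87.9), set beside 73.8% in replicate 2 and 76.9% in replicate 1 for all other protein-coding genes. Genomic models held 1.52% in replicate 2 and 0.797% in replicate 1, set beside 6.46% in replicate 2 and 4.46% in replicate 1 for the others. Incomplete matches held 9.05% in replicate 2 and 7.55% in replicate 1. The intervals cover counting error only, and no test over samples can be made of these shares. Among Known reads of the set, 99.5% in replicate 2 and 99.7% in replicate 1 fell on transcripts annotated as protein coding, and 23 reads in replicate 2 and 14 in replicate 1 fell on transcripts annotated as retaining an intron.

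**Figure D4:**
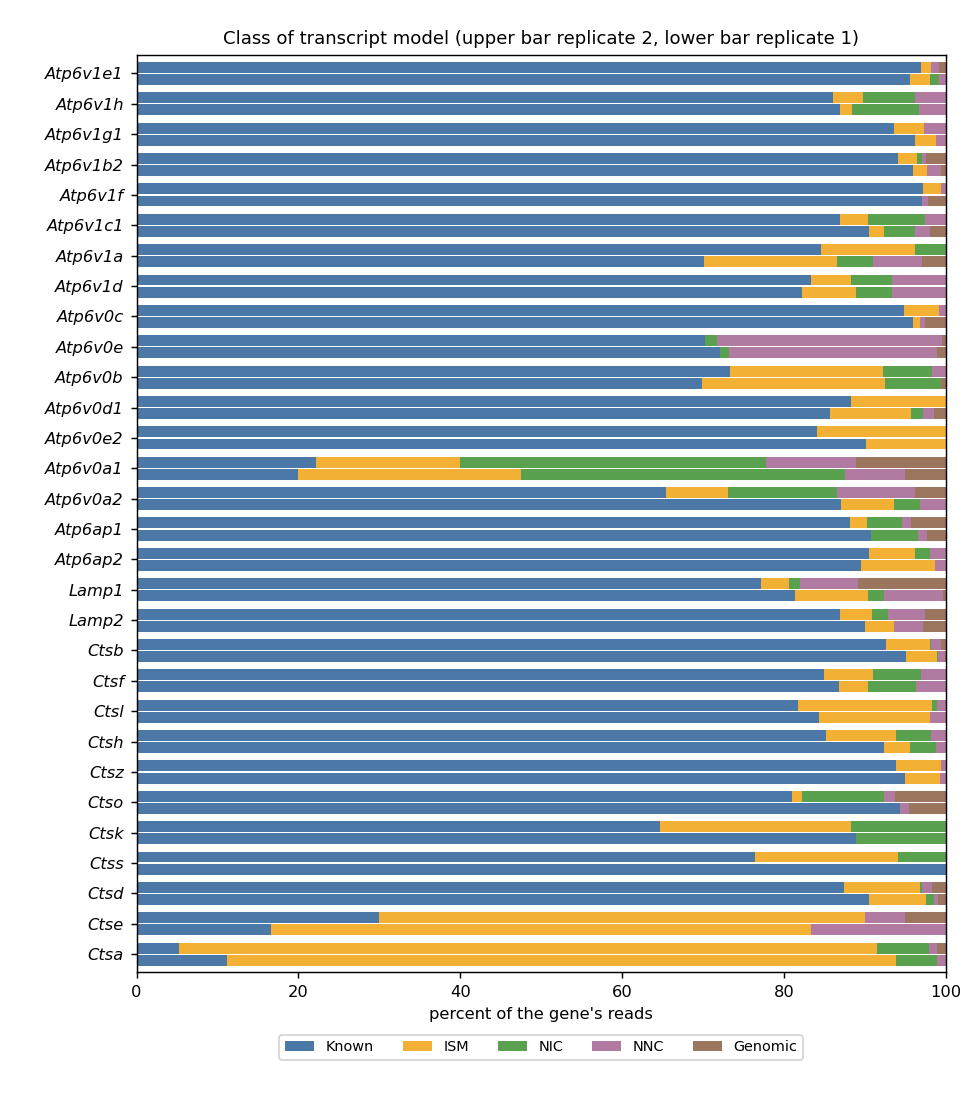
Share of each gene's reads, in percent, by class of transcript model, for the 30 genes with at least 20 reads, with replicate 2 as the upper bar and replicate 1 as the lower one. Known models fill most bars, whereas Ctsa is mostly ISM, Ctse is mostly ISM, Atp6v0a1 is led by NIC and Atp6v0e holds a large NNC share.

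The Genomic and ISM classes differed between the libraries for Lamp1, which had 41 Genomic and 13 ISM reads in replicate 2, against 1 Genomic and 32 ISM reads in replicate 1. Lamp1 thus held 41 of the set's 94 Genomic reads in replicate 2 and 1 of 50 in replicate 1. The complete match Lamp1-201 held nearly the same number in both, 291 reads in replicate 2 and 289 in replicate 1. Atp6v0c went the other way, with 0 Genomic and 15 ISM reads in replicate 2 and 9 Genomic and 3 ISM reads in replicate 1.

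Isoform use was compared over Known, NIC and NNC models in genes that had 20 or more such reads in both libraries. Of the 27 genes of the set that qualified, 16 had a leading model with at least 90% of these reads, and the median share of the leading model was 93.0%, beside 88.7% over all 4734 genes tested. No gene of the set had a called difference in the share of its leading model between the libraries, by a two-sided Fisher's exact test (adjusted p below 0.05 together with 10 or more percentage points), where 0.338% of all genes did. At an unadjusted p under 0.05 there was 1 of the 27, Ctso, where 6.04% of all genes tested passed.

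Lamp2 divided its reads between annotated transcripts with different last exons. Counting every spliced model by its last exon, the LAMP-2A exon took 92 of 149 reads (61.7%, Wilson 95% interval 53.7 to 69.2) in replicate 2 and 82 of 136 reads (60.3%, 51.9 to 68.1) in replicate 1. The LAMP-2B exon took 56 reads (37.6%, 30.2 to 45.6) in replicate 2 and 52 reads (38.2%, 30.5 to 46.6) in replicate 1. The LAMP-2C exon took 1 read in replicate 2 and 2 reads in replicate 1. The order was the same in both libraries, and the shares differed between them by less than counting error. As the sequences printed for Lamp2-201, Lamp2-202 and Lamp2-203 show, the coding parts of the last exons have 140, 140 and 143 bases with the stop codon.

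Most Ctsa reads were given to a model that begins within the first intron of Ctsa-202, the leading annotated transcript. Its first exon, downstream of the first exon of Ctsa-202, is not part of that transcript. The most abundant Ctsa model was an incomplete match with 15 exons that begins at position 164833807 of chromosome 2, with 149 of 189 reads in replicate 2 and 138 of 178 reads in replicate 1. Ctsa-202, the leading complete match, begins at position 164832873 and had 8 reads in replicate 2 and 15 in replicate 1. Ctsa-201 had 2 reads in replicate 2 and 5 in replicate 1, and a new combination of 14 exons had 7 reads in replicate 2 and 6 in replicate 1. At the acceptor of the following exon, the intron that starts from the downstream exon took 95.3% of reads in replicate 2 (91.0 to 97.6) and 91.1% in replicate 1 (85.9 to 94.5). These include reads in which the downstream exon is internal, since an intron that joins the upstream exon to it had 2 reads in replicate 2 and 5 in replicate 1. Position 164833807 is also the annotated start of Ctsa-212, a short annotated transcript that ends within the gene. RefSeq places a second start of Ctsa at position 164833773, and the CACGTG pair printed for Ctsa lies 12 bases before and 5 bases after that start, while the promoter of the upstream start at position 164832872 holds none. Single read ends are not in the tables, so where each read began was not measured.

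Atp6v0e carried the most abundant new splice site of the set. Its alternative exon ends 16 bases earlier, at the bases printed in capitals for Atp6v0e, and the new donor took 57 of 197 reads (28.9%, 23.1 to 35.6) in replicate 2 and 47 of 188 reads (25%, 19.4 to 31.6) in replicate 1. The new exon end lies 20 bases after the stop codon, so both forms have the same coding sequence. The alternative intron spans chr17:26695469-26699211 and the annotated one chr17:26695485-26699211 (mm10).

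Atp6v0a1 was led by a new combination of annotated introns, with 16 reads in replicate 2 and 13 in replicate 1, ahead of the annotated Atp6v0a1-203, with 7 reads in replicate 2 and 8 in replicate 1. At the intron that starts at chr11:101021183, the acceptor that leaves out the 21 bases printed in capitals for Atp6v0a1 took 19 of 32 reads (59.4%) in replicate 2 and 19 of 31 reads (61.3%) in replicate 1. A further acceptor that leaves out 18 bases had 3 reads in replicate 2 and 3 in replicate 1. Both remove whole codons.

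Smaller alternative forms were also present in both libraries. Atp6v1a was divided between Atp6v1a-202, with 34 reads in replicate 2 and 35 in replicate 1, and Atp6v1a-201, with 10 reads in replicate 2 and 12 in replicate 1, whose first exon ends 14 bases further on, outside the coding sequence. In Lamp1, an acceptor 3 bases upstream at the second exon took 6.50% of 323 reads in replicate 2 and 5.30% of 321 reads in replicate 1, adding 1 codon. In Atp6v1h, Atp6v1h-204, which lacks an exon of 54 bases, took 1.66% of reads in replicate 2 (0.565 to 4.76) and 4.67% in replicate 1 (2.56 to 8.39), and a longer first exon outside the coding sequence took 6.70% in replicate 2 and 8.02% in replicate 1.

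In Atp6v0b, an annotated later first donor took 5.22% of reads in replicate 2 and 3.76% in replicate 1. In Ctsf, with 46 models the most of the genes compared, a donor 12 bases further on took 2.49% of reads in replicate 2 and 2.47% in replicate 1. In Ctsd, with 971 reads in replicate 2 and 1178 in replicate 1 at the site, a donor 5 bases earlier took 0.824% in replicate 2 and 0.594% in replicate 1. In Ctse, an incomplete match that lacks the first exon of Ctse-201 had 11 reads in replicate 2 and 4 in replicate 1, against 6 reads of Ctse-201 in replicate 2 and 1 in replicate 1.

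Some shares lay further apart in the 2 libraries. Atp6v0a2-201 held 71.7% of complete reads in replicate 2 and 89.7% in replicate 1, a difference of -17.9 points over 46 reads in replicate 2 and 29 in replicate 1 (adjusted p = 0.922, Fisher's exact test). Ctsa-202 held 33.3% of complete reads in replicate 2 and 48.4% in replicate 1, over 24 reads in replicate 2 and 31 in replicate 1. Neither difference passed the test. In Atp6v0b, the first intron (531 bases) was retained in 22 of 147 spliced reads (15.0%, Wilson 95% interval 10.1 to 21.6) in replicate 2 and in 42 of 170 reads (24.7%, 18.8 to 31.7) in replicate 1. The intervals of these 2 shares overlap, which does not show that the shares are alike, and no test of the difference was made. In Ctso, a new intron at chr3:81942333-81951372 (mm10) that leaves out 2 exons, or 290 bases, took 7 of 71 reads (9.86%) in replicate 2 and 0 of 84 in replicate 1, which allows a share of up to 3.57% there. The leading model Ctso-201 held 84.9% of complete reads in replicate 2 and 98.8% in replicate 1, a difference of -13.9 points that did not pass the test (adjusted p = 0.216, Fisher's exact test). With incomplete matches counted as well the shares were 83.8% in replicate 2 and 98.8% in replicate 1, and the difference was called (adjusted p = 0.0346, exact test).

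**Figure D5:**
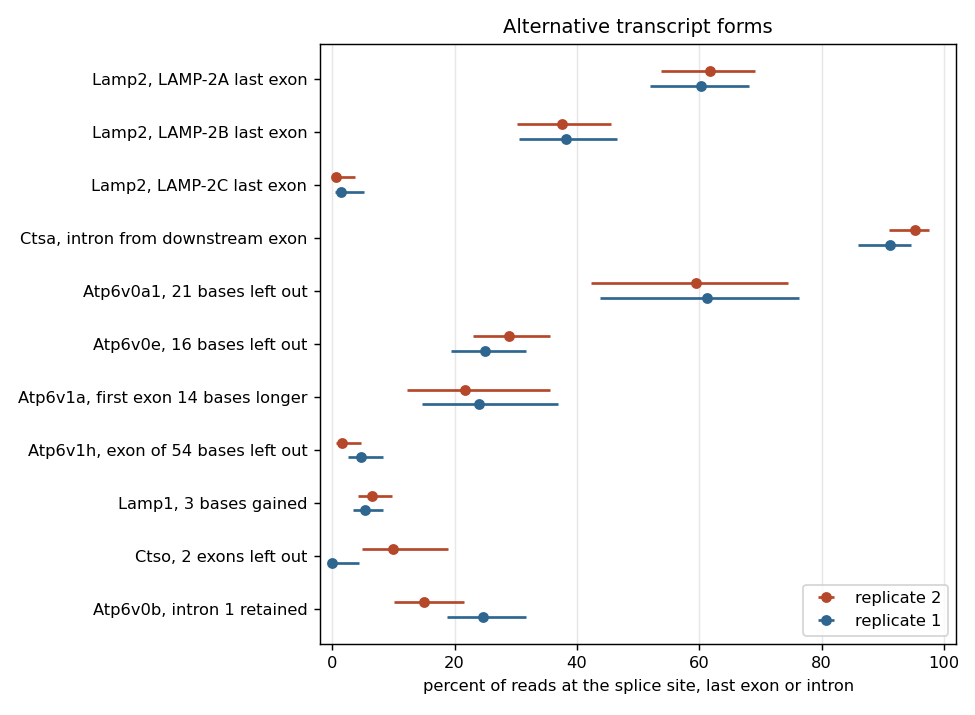
Share of reads, in percent, that used each alternative form, with Wilson 95% intervals of the read counts; points are replicate 2 above replicate 1. The LAMP-2A and LAMP-2B ends of Lamp2 lie at 61.7% and 37.6% in replicate 2 and at 60.3% and 38.2% in replicate 1, and the Ctsa intron that starts from the downstream exon lies above 90% in both.

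RefSeq promoters, 250 bases before to 50 bases after a start, were given for 37 of the 48 genes, 42 promoters in all. Atp6v1h, Ctsb, Ctse, Ctsh, Atp6v1b2, Atp6v1c1, Atp6v1g1, Atp6v0a2, Atp6v0d2, Ctsw and Atp6ap1l had no entry. The letters CACGTG, which read the same on both strands, occurred in 9 of the 42 promoters (21.4%), against 7.15% of all 32851 promoters. The longer TCACGTG, on either strand and always overlapping the shorter motif, occurred in 7 of the 42 (16.7%), against 3.77% of all promoters. All 9 belonged to genes with at least 20 reads: Ctsa, Atp6v0b, Ctsd, Lamp1, Atp6v0d1, Atp6v1a, Atp6v0e, Ctsf and Ctsl, with the longer form in the first 7. In the 150 bases before the start alone, 6 of the 42 promoters (14.3%) held CACGTG, against 4.30% of all promoters. TCACGTG was held there by 5 of the 42 (11.9%), against 2.36% of all promoters.

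Lamp1 held 4 matches, of which the pair printed starts 61 and 45 bases before its start. Atp6v0b held the pair printed, at 36 and 18 bases before the start, and Ctsd held matches at 245 bases, as printed, and 98 bases before its start; GENCODE starts Ctsd-202 further upstream, at position 142388038. Among the 25 promoters of genes of the set with at least 20 reads, 9 (36%) held CACGTG and 7 (28%) held TCACGTG, against 10.03% and 5.97% of the promoters of other protein-coding genes with at least 20 reads. A match describes letters and no measured binding, and a window without a match says nothing of the factor.

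Genes that work with the set were read from 6 lists. Of the V-ATPase genes outside the name pattern, 12 of the 13 found in the annotation had reads, with sums of 701 CPM in replicate 2 and 715 CPM in replicate 1. Rnasek, a small membrane protein of the pump, led this list with 281 CPM in replicate 2 and 253 CPM in replicate 1, ahead of Tmem9 with 99.9 CPM in replicate 2 and 121 CPM in replicate 1. None of its 8 tested genes was called or passed on the adjusted p alone.

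All 40 other lysosomal hydrolases had reads and reached a sum of 2777 CPM in replicate 2 and 3239 CPM in replicate 1. Lgmn, the asparaginyl endopeptidase that processes cathepsins, led with 268 CPM in replicate 2 and 349 CPM in replicate 1. Scpep1, a serine carboxypeptidase related to Ctsa, stood at 191 CPM in replicate 2 and at 275 CPM in replicate 1, and was the single gene of 31 tested that passed on the adjusted p alone (log2 ratio -0.52, adjusted p = 0.0165, Fisher's exact test). Fuca1, the lysosomal fucosidase, stood at 208 CPM in replicate 2 and at 256 CPM in replicate 1. No gene of the list was called.

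Of the activators and cysteine protease inhibitors, Cst3, the secreted cystatin C that inhibits cysteine cathepsins, stood at 685 CPM in replicate 2 and at 693 CPM in replicate 1. Cstb, the cytosolic cystatin, stood at 315 CPM in replicate 2 and at 386 CPM in replicate 1. Gm2a, the GM2 activator, stood at 199 CPM in replicate 2 and at 248 CPM in replicate 1. None of the 5 genes tested passed in either direction.

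The other lysosomal membrane proteins, 28 of 28 with reads, were led by Laptm4b, Cd63 and Laptm4a. Laptm4b stood at 316 CPM in replicate 2 and at 465 CPM in replicate 1, the single gene of 22 tested that passed on the adjusted p alone (log2 ratio -0.56, adjusted p = 1.38e-04, Fisher's exact test). Cd63 stood at 403 CPM in replicate 2 and at 334 CPM in replicate 1, and Laptm4a stood at 199 CPM in replicate 2 and at 208 CPM in replicate 1.

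Among the 20 genes that sort enzymes to the lysosome, M6pr, the cation-dependent mannose-6-phosphate receptor, led with 231 CPM in replicate 2 and 301 CPM in replicate 1. Ap1s1, a subunit of the clathrin adaptor AP-1, stood at 165 CPM in replicate 2 and at 187 CPM in replicate 1. Gga1, a clathrin adaptor (log2 ratio -0.62, adjusted p = 0.0125, Fisher's exact test), and Ap1m1, an AP-1 subunit (log2 ratio -0.61, adjusted p = 0.0188, exact test), were lower in replicate 2 on the adjusted p alone, and the other 14 genes tested did not pass.

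Of the 21 nutrient sensing and TFEB family genes, 19 had reads. Lamtor1, the anchor of the Ragulator complex on the lysosome, stood at 253 CPM in replicate 2 and at 227 CPM in replicate 1, Rheb, the GTPase that activates mTORC1, stood at 185 CPM in replicate 2 and at 205 CPM in replicate 1, and Rragc, a Rag GTPase, stood at 157 CPM in replicate 2 and at 206 CPM in replicate 1. None of the 14 genes tested passed in either direction. In none of the 6 lists was a gene called, where 3.23% of all genes tested were. On the adjusted p alone, 4.1% of all genes tested passed as lower in replicate 2 and 3.83% as higher, and the counts of the lists are to be read beside these shares.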

How the data were processed

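Each library has a table of raw read counts per transcript model as the authors deposited it, with columns of gene and transcript novelty in the style of TALON, per the file headers. A model with no read is not listed. The build mm10 and the GENCODE M21 annotation are named in the deposited file descriptions. For the aligner and all versions: not given in the sources used here.

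Counts were summed over the models of each gene. CPM used all reads on mouse contigs, with the Ambion spike-in reads left out (21907 in replicate 2 and 19466 in replicate 1); the Lexogen spike-ins were not analysed here. Spliced new models were matched between libraries by strand and intron chain. Fisher's exact test (scipy 1.17.1) compared the libraries, with 0.5 CPM added for ratios. Shares carry Wilson 95% intervals, and ratios exact ones. The tables name no molecular identifiers, so intervals and floors measure counting error alone. TMM factors (edgeR 4.0.16) and size factors (DESeq2 1.42.0) were alternatives. Near copies were sought with minimap2 2.31 (at least 300 bases at 90% identity). The tests were checked on simulated counts that held planted changes and counting error alone. That check cannot show how the tests act where libraries vary beyond counting error.

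The genes, the lists and the naming rule were chosen with earlier results of these data known. The rule covered every gene with at least 20 reads with its values, those with fewer by reads, and the 3 most abundant genes of each list. For models it covered the leading model, others with at least 10% of complete reads, and new models with at least 5 reads. Not every model that it covered is described here. Single introns and the genes passing on the adjusted p alone were added after their values were seen. Atp6v1e1, Ctsz, Ctsa, Ctsb, Lamp1 and others of the set overlap annotated genes on the opposite strand. Whether counting used strand is not stated.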

Additional observations from a re-analysis of the deposited data

Results flagged for a closer look

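2 signals lie outside the gene set. The processed pseudogene Atp6v0c-ps2 was given 12 reads (14.8 CPM) in replicate 2 and 11 reads (15.98 CPM) in replicate 1, 23 in all, above the 3 reads that a count of 0 allows. Its 465 aligned bases match Atp6v0c at 99.8%, and whether these reads belong to Atp6v0c was not tested. The other pseudogene, Atp6v0c-ps1, had 0 reads in both.

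Models that the depositors' program names antisense, with exons over exons of 13 of the 48 genes, held 24 reads in replicate 2 and 12 in replicate 1, 36 in all, and none of them shared an intron with the gene on the other strand. Atp6v1e1 had most, with 7 antisense reads beside 227 sense reads in replicate 2 and 3 beside 250 in replicate 1, followed by Lamp2 with 4 in replicate 2 and 3 in replicate 1.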

How the results depend on the processing

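No gene of the set was called under any scaling, read minimum, pseudocount or choice of models tried for the gene test. The count of genes passing on the adjusted p alone was 5 and became 3 under TMM scaling, 3 under DESeq2's size factors, 3 with no read minimum, 3 without Genomic models and 3 from Known models alone, and lay at 4 to 6 under the other minimums and pseudocounts. Over all genes, 267 were called, and 161 with at least 50 reads, where fewer genes were tested. The summed level was 8364 CPM and became 7177 CPM from Known models alone, which count fewer reads, and without replicate 1 or replicate 2 it lay between 7609 and 9120 CPM. With incomplete matches included, 1 gene of the set had a called difference in isoform share, Ctso, at 83.8% in replicate 2 and 98.8% in replicate 1 (adjusted p = 0.0346, Fisher's exact test), where 113 of 5142 genes were called; the cause was not tested. Atp6ap2 and Atp6v1h lost their adjusted p in 11 settings between them, and Ctsb, Ctsd and Ctsf in none of those tried for the gene test. No paired analysis was possible because there is 1 group. Depth limits the low genes: Ctss, with 24 reads, had a ratio of levels of 2.06 with an exact interval of 0.813 to 5.88.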
